A study of Mus musculus with 8 samples.

Results

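The 9 genes described here store retinol, carry it between cells, turn it into retinoic acid or bind retinoic acid in the nucleus. They were chosen by symbol, as named genes of the retinoid pathway, and all 9 were found among the 25509 mouse genes of the count table and passed the filter on low counts. In the CD249+ fraction of sorted lung cells, labelled fibroblasts, 4 of them were expressed at higher levels than in the CD249- fraction of the same lungs. These were Lrat (26.2-fold), Aldh1a1 (11.0-fold), Rbp4 (3.76-fold) and Rdh10 (1.67-fold), while Stra6, Dhrs3, Aldh1a2, Aldh1a3 and Rarb did not pass the test in either direction.

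Retinol, vitamin A, travels in blood bound to the carrier protein RBP4 and can enter cells through the membrane receptor STRA6. Inside the cell LRAT joins it to a fatty acid, and the resulting retinyl ester is kept in lipid droplets. For use as a signal, retinol is oxidised to retinal by enzymes such as RDH10, a step that DHRS3 runs backwards, and retinal is oxidised to retinoic acid by the dehydrogenases ALDH1A1, ALDH1A2 and ALDH1A3. Retinoic acid acts through the nuclear receptors RARA, RARB and RARG, each paired with a retinoid X receptor, and is broken down by the CYP26 enzymes. In lung, lipid-bearing fibroblasts of the alveolar wall are a known store of retinyl esters, and retinoic acid has known roles in the formation of alveoli.

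RNA was measured in 8 libraries from the lungs of 4 wild-type C57Bl6/J mice, numbered 2, 7, 8 and 10, with no treatment named in the labels. Cells of digested lung negative for CD45, CD31 and CD326, which mark leukocytes, endothelium and epithelium, were split by sorting on CD249. This gave 4 CD249+ libraries (count columns named LIF) and 4 CD249- libraries (columns named Ctrl), with equal cell numbers from a lung. The labels give no age. CD249 is glutamyl aminopeptidase, the product of Enpep, which stood at 241 ± 64.8 CPM in the CD249+ fraction and 8.98 ± 5.62 CPM in the CD249- fraction (SD, n = 4 each). CPM are counts relative to the library total, here with totals scaled by TMM, a method that aligns most genes between libraries.

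Library totals ran from 23011383 to 31906414 counts, with 15456 to 16526 genes detected. Markers of the labelled cell type were present in both fractions, and markers of cells outside the sort were present too. Summed over 10 fibroblast markers, levels were 17394 to 28353 CPM in CD249+ and 6514 to 14142 CPM in CD249- libraries, and 8 of the 10 were called higher. The fibroblast gene Pdgfra stood at 906 ± 142 CPM in the CD249+ fraction and 143 ± 32.1 CPM in the CD249- fraction (SD, n = 4 each). Summed over 12 endothelial markers, they were 4104 to 7727 CPM in CD249+ and 13132 to 17237 CPM in CD249- libraries, and all 12 were called lower (exact permutation test of either sum, two-sided, p = 0.0286, the smallest that 4 against 4 can give, adjusted p = 0.0429 over 9 lists). This test exchanges libraries across mice and ignores their pairing. An exact test that kept the pairing could not pass 0.05 with 4 mice. In 3 of 4 CD249- libraries the endothelial sum was above the fibroblast sum (CPM, not scaled by length), which goes against the label of that fraction as fibroblasts alone. Pecam1, which encodes the gated CD31, stood at 611 ± 239 CPM in the CD249+ and 1667 ± 248 CPM in the CD249- libraries, Ptprc (CD45) at 63.1 ± 22.8 and 123 ± 58.0 CPM in CD249+ and CD249- libraries, and Epcam (CD326) at 7.98 ± 4.97 and 7.46 ± 1.62 CPM in CD249+ and CD249- libraries. Other epithelial genes did differ, and are given with the last results. Both sums moved with the rises described here, and their part in those rises was not tested. In sorted bulk samples, more cells of a type and more RNA per cell cannot be told apart.

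The called genes with the largest rises, Lrat, Aldh1a1 and Rbp4, are shown by the 250 bases before a RefSeq start site of each (GRCm38.p6). Their promoters can thus be compared, and whether the 3 genes share regulation was not tested. The windows are chr3:82903975-82904224 on the minus strand for Lrat, chr19:20601718-20601967 on the plus strand for Aldh1a1 and chr19:38124812-38125061 on the minus strand for Rbp4. They read 5′ to 3′ along the gene, and capitals mark matches, on either strand, to the TATA box (TATAAA), to the CCAAT box or to the GC box (GGGCGG), with no matches overlapping:
Lrat: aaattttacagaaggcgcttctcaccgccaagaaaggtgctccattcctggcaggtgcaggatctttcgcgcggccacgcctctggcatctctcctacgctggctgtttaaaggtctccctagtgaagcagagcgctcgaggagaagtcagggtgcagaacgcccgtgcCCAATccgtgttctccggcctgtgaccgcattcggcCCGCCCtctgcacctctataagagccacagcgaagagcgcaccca
Aldh1a1: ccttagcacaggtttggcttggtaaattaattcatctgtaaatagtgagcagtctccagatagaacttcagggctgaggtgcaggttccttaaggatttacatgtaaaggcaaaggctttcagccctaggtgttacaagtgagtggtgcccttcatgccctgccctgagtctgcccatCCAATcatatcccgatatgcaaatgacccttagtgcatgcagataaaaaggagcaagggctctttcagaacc
Rbp4: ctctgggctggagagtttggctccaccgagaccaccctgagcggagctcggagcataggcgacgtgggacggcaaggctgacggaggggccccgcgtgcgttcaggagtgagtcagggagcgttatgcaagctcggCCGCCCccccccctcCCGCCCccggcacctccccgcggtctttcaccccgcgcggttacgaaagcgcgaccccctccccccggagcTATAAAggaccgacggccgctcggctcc
Lrat held CCAAT and, on the opposite strand, GGGCGG, Aldh1a1 held CCAAT, and Rbp4 held TATAAA and a pair of GGGCGG matches on the opposite strand. Rbp4 and Aldh1a1 have 2 listed starts each, of which only that of the window above is shown. The window of the other Rbp4 start held CCAAT on the opposite strand and neither TATAAA nor GGGCGG. Of all 32851 RefSeq promoter windows of this length, 12.4% held TATAAA, 33.8% CCAAT and 32.7% GGGCGG. None of the 3 windows held AGGTCA, an element bound by many nuclear receptors, which was found in 14.0% of all windows. Single copies of its variants were not counted over all windows. The variant GGGTCA stood in the Aldh1a1 window on the opposite strand.

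**Figure D1:**
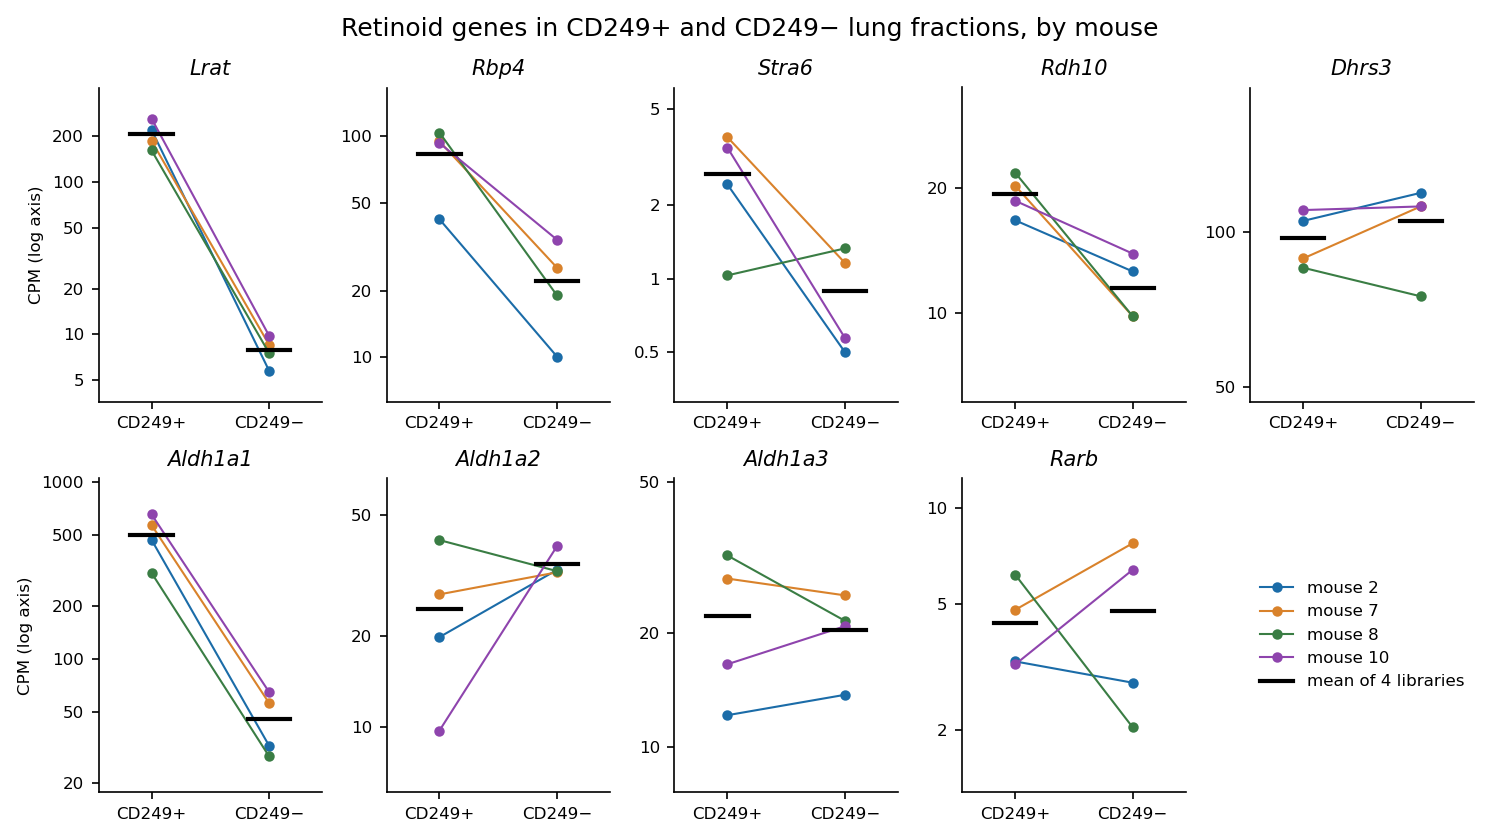
Level of each of the 9 genes in CPM (logarithmic axis, with its own range for every gene), in the CD249+ fraction on the left and the CD249- fraction on the right of each panel. Points are libraries, lines join the 2 fractions of a mouse and black bars are means of 4 libraries. The fractions are far apart for Lrat and Aldh1a1, apart for Rbp4 and Rdh10, and overlap for the other 5 genes.

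Of the 9 genes, 4 were called higher and 0 lower at an adjusted p under 0.05 (edgeR's quasi-likelihood test, two-sided, adjusted over all genes), 5 had an unadjusted p under 0.05, DESeq2 called 5 higher and limma-voom 4. Over all 14524 genes tested, 30.8% were called in this comparison, 16.9% higher (2455) and 13.9% lower (2013), a split that turned to 2106 higher and 2689 lower when libraries were scaled by their totals only. The median log2 fold change was 0.74 over the 9 genes and -0.02 over all genes tested. The same 4 genes had ranges that did not overlap between the fractions, which was so, in the same direction, for 17.8% of all genes, and in the opposite direction for 15.8%. They were also higher in CD249+ in all 4 mice, as were 26.5% of all genes. The calls above leave out the pairing of libraries by mouse. With mouse as a block the same 4 genes were called higher, and 36.5% of all genes were called.

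Of the 9 genes, the storage gene Lrat differed most between the fractions. Lrat, lecithin retinol acyltransferase, makes the retinyl esters (ENSMUSG00000028003.6, chromosome 3, 82892579 to 82903973, minus strand, GRCm38). Its level was 220.4, 187, 162 and 262 CPM in the CD249+ fraction of mice 2, 7, 8 and 10, against 5.78, 8.55, 7.55 and 9.81 CPM in the CD249- fraction. Every CD249+ library was thus far above every CD249- library, with no overlap. The log2 fold change was 4.71 (SE 0.21, adjusted p = 1.6e-06, edgeR), higher in 4 of 4 mice, and Lrat ranked 52 of 14524 genes by this value. Within single mice the difference in log2(CPM + 0.5) was 5.14, 4.37, 4.33 and 4.67.

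The carrier and the receptor for retinol behaved differently. Rbp4 encodes the secreted retinol carrier (ENSMUSG00000024990.12, chromosome 19, 38116629 to 38125281, minus strand). It stood at 42.2, 95.0, 104 and 93.3 CPM in the CD249+ fraction of mice 2, 7, 8 and 10, and at 10.1, 25.5, 19.1 and 34.1 CPM in the CD249- fraction. The libraries of mouse 2 were the lowest of each fraction, and the fractions did not overlap. Rbp4 rose by 1.91 on the log2 scale (SE 0.37, adjusted p = 0.00371, edgeR), higher in 4 of 4 mice. Stra6, the membrane receptor that takes up retinol from RBP4 (ENSMUSG00000032327.14, chromosome 9, 58063788 to 58153996), was near the lower end of detection, with 29 to 108 counts in a CD249+ and 15 to 33 counts in a CD249- library. Its level was 2.44, 3.82, 1.03 and 3.46 CPM in the CD249+ fraction of mice 2, 7, 8 and 10, and 0.498, 1.16, 1.33 and 0.57 CPM in the CD249- fraction. It was higher in CD249+ cells of 3 mice and lower in those of mouse 8, and the fractions overlapped. With all libraries the log2 fold change was 1.59 (SE 0.58, adjusted p = 0.0627, edgeR), and without the CD249+ library of mouse 8 it was 1.86 and called (adjusted p = 0.0388), as it was without both libraries of mouse 8 (2.12, adjusted p = 0.0391) and by DESeq2 (1.62, adjusted p = 0.0168). These were the only 3 of 20 alternative fits of Stra6 that called it. It was not called with mouse as a block (adjusted p = 0.115, edgeR), by limma-voom (adjusted p = 0.0874) or without mouse 10 (adjusted p = 0.252, edgeR).

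The enzymes that set the balance of retinol and retinal were measured next. Rdh10, the retinol dehydrogenase that makes retinal (ENSMUSG00000025921.7, chromosome 1, 16105774 to 16133734), stood at 16.7, 20.2, 21.7 and 18.6 CPM in the CD249+ fraction of mice 2, 7, 8 and 10, against 12.6, 9.84, 9.84 and 13.9 CPM in the CD249- fraction. The lowest CD249+ library was above the highest CD249- library, and the gap was wider in mice 7 and 8 than in mice 2 and 10. Rdh10 rose by 0.74 on the log2 scale (SE 0.17, adjusted p = 0.00858, edgeR), higher in 4 of 4 mice, and it was no longer called when mouse 7 (0.65, adjusted p = 0.0611) or mouse 8 (0.61, adjusted p = 0.0644) was left out. Dhrs3, the reductase that returns retinal to retinol and is itself a known retinoic acid target (ENSMUSG00000066026.14, chromosome 4, 144892827 to 144928209), stood at 105, 88.8, 85.2 and 110.2 CPM in the CD249+ fraction and 119, 112, 75 and 112 CPM in the CD249- fraction. The fractions overlapped, and the library of mouse 8 was the lowest of each. The log2 fold change was -0.10 (SE 0.15, adjusted p = 0.649, edgeR). Per kilobase of transcript, the level of Dhrs3 was 7.88 ± 1.77 times that of Rdh10 in CD249+ libraries (range 6.04 to 9.69) and 14.0 ± 2.61 times in CD249- libraries (range 11.7 to 17.5; SD, n = 4 each), so that the ranges of this ratio did not overlap.

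The dehydrogenases of the last step, from retinal to retinoic acid, moved apart from each other. Aldh1a1 (ENSMUSG00000053279.6, chromosome 19, 20492715 to 20643465) stood at 472, 572, 307 and 657 CPM in the CD249+ fraction of mice 2, 7, 8 and 10, against 32.5, 56.6, 28.3 and 65.3 CPM in the CD249- fraction. The fractions were far apart, and mouse 8 gave the lowest and mouse 10 the highest library of each. Aldh1a1 rose by 3.46 on the log2 scale (SE 0.33, adjusted p = 6.1e-05, edgeR), higher in 4 of 4 mice. Its close copy Aldh1a7, on the same chromosome, can share reads with it, and the counts of both are not whole. Aldh1a7 took 0.484% ± 0.48 of the summed CPM of the pair in CD249+ and 2.05% ± 1.67 in CD249- libraries (SD, n = 4 each), and the sum was 504 ± 152 CPM in CD249+ and 46.4 ± 17.7 CPM in CD249- libraries.

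Aldh1a2, the main retinoic acid-making enzyme of the embryo (ENSMUSG00000013584.5, chromosome 9, 71215789 to 71296243), stood at 19.8, 27.4, 41.4 and 9.73 CPM in the CD249+ fraction of mice 2, 7, 8 and 10, and at 33.0, 32.4, 32.7 and 39.5 CPM in the CD249- fraction. It varied over a wide range among CD249+ libraries, with mouse 8 above and mouse 10 far below the narrow range of the CD249- libraries. The log2 fold change was -0.49 (SE 0.35, adjusted p = 0.324, edgeR), lower in 3 of 4 mice. Aldh1a2 is also a known gene of mesothelium, the lining of the lung surface. Of 10 mesothelial markers 5 were called lower and 1 higher, with sums of 114 to 130.3 CPM in CD249+ and 96.1 to 259 CPM in CD249- libraries (exact permutation p = 0.286, adjusted p = 0.322 over 9 lists), and the part of such cells in the level of Aldh1a2 was not tested. The marker called higher, Upk1b, had means of 62.6 CPM in CD249+ and 8.87 CPM in CD249- libraries, and so weighs on the CD249+ sums. Those called lower were Msln (-3.13), Lrrn4 (-3.10), Upk3b (-2.56), Gpm6a (-2.19) and Krt19 (-0.70). The defining marker Msln stood at 4.40 ± 2.17 CPM in CD249+ and 38.6 ± 19.3 CPM in the CD249- fraction, while Wt1 stood at 0.723 ± 0.775 CPM in CD249+ and 0.561 ± 0.366 CPM in CD249- libraries (SD, n = 4 each). Aldh1a3 (ENSMUSG00000015134.14, chromosome 7, 66390890 to 66427517, minus strand) stood at 12.1, 27.8, 32.0 and 16.5 CPM in the CD249+ fraction and 13.7, 25.1, 21.5 and 20.8 CPM in the CD249- fraction. The fractions overlapped, with a log2 fold change of 0.12 (SE 0.31, adjusted p = 0.796, edgeR), and it was higher in CD249+ cells of mice 7 and 8 only.

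Compared per kilobase of transcript, the 3 dehydrogenase genes summed to 262 ± 67.0 CPM per kb in CD249+ and 43.3 ± 10.6 CPM per kb in CD249- libraries (SD, n = 4 each). Aldh1a1 made up 92.5% ± 5.61 of this sum in CD249+ libraries (range 84.4 to 97.2%) and 49.9% ± 8.36 in CD249- libraries (range 40.0 to 57.5%). Aldh1a2 made up 4.82% ± 3.85 in CD249+ and 36.2% ± 6.89 in CD249- libraries, and Aldh1a3 2.71% ± 1.78 in CD249+ and 13.8% ± 3.30 in CD249- libraries. Thus Aldh1a1 supplied nearly all of these transcripts in CD249+ cells, while in CD249- cells Aldh1a1 and Aldh1a2 were closer to each other. With the length of all annotated exons in place of the principal transcript, an alternative chosen after seeing the data, the share of Aldh1a1 was 85.3% ± 10.0 in CD249+ and 31.2% ± 7.14 in CD249- libraries.

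**Figure D2:**
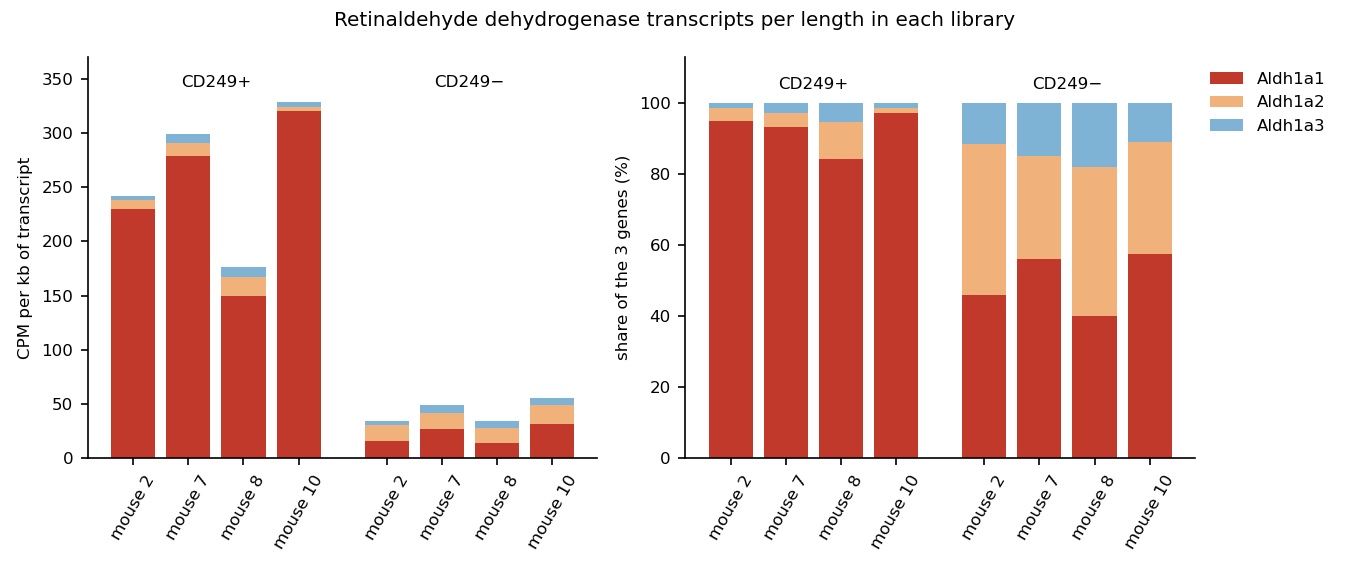
Aldh1a1, Aldh1a2 and Aldh1a3 in each library, the 4 CD249+ libraries on the left and the 4 CD249- libraries on the right of each panel. The left panel stacks levels in CPM per kb of transcript and the right panel shares of their sum in percent; Aldh1a1 takes 84.4 to 97.2% in CD249+ and 40.0 to 57.5% in CD249- libraries.

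Rarb, a nuclear receptor for retinoic acid whose own promoter is a classical target of retinoic acid, did not separate the fractions. The element through which retinoic acid receptors act there is a direct repeat with a spacing of 5 bases, called DR5. A search on both strands for pairs so spaced, each member being AGGTCA, or AGTTCA, or GGGTCA, or else GGTTCA, found it within the 250 bases before the RefSeq start of Rarb and before that of Cyp26a1, an enzyme that degrades retinoic acid. Both are shown in 30 bases of RefSeq sequence (GRCm38.p6, chr14:16575507-16575536 on the minus strand and chr19:37697769-37697798 on the plus strand), with the repeat in capitals, since transcripts of these genes are common readouts of retinoic acid:
Rarb: cgggaagGGTTCACCGAAAGTTCActcgca
Cyp26a1: ttaaagaTGAACTTTGGGTGAACTaatttg
In Cyp26a1 the repeat reads on the opposite strand. Such a repeat was found in 0.0883% of the 32851 windows, and in none of those of the other 6 genes with a window (Lrat, Rbp4, Stra6, Dhrs3, Aldh1a1 and Aldh1a2), over all their listed start sites. It lay at bases -53 to -37 from the start of Rarb and -32 to -16 from that of Cyp26a1.

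Rarb (ENSMUSG00000017491.8, chromosome 14, 16430839 to 16819156, minus strand) stood at 3.29, 4.78, 6.16 and 3.22 CPM in the CD249+ fraction of mice 2, 7, 8 and 10, and at 2.82, 7.74, 2.04 and 6.39 CPM in the CD249- fraction, from 49 to 221 counts a library. It was higher in CD249+ cells of mice 2 and 8 and lower in those of mice 7 and 10. The log2 fold change was -0.12 (SE 0.46, adjusted p = 0.866, edgeR). Cyp26a1 was at 0 to 0.0354 CPM in CD249+ and 0 to 0.299 CPM in CD249- libraries and did not pass the filter on low counts, and Cyp26c1 was at 0 in all 8 libraries. The other degrading enzyme, Cyp26b1, stood at 25.6, 6.66, 3.18 and 19.7 CPM in the CD249+ fraction of mice 2, 7, 8 and 10, against 61.9, 26.1, 9.89 and 58.0 CPM in the CD249- fraction. This was from 90 to 1933 counts a library. The fractions overlapped and mouse 8 was the lowest in both, but Cyp26b1 was lower in CD249+ cells of 4 of 4 mice, which was so for 26.5% of all genes. Without pairing the log2 fold change of Cyp26b1 was -1.50 (SE 0.68, adjusted p = 0.128, edgeR), and with mouse as a block it was -1.60 and called (adjusted p = 6.71e-05, where 36.5% of all genes were called and 17.1% were lower). The endothelial sum, lower in every CD249+ library, moved with it, and its part in the difference was not tested.

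The other retinoid genes were described by 6 lists with 60 genes in the table, of which 42 were tested. Of these 42, 8 were called higher, 6 lower and 28 did not pass (33.3% called, against 30.8% of all genes), and their median log2 fold change was 0.14. The split was 8 higher and 9 lower with mouse as a block, and 7 higher and 9 lower with library size only. Among carriers and uptake genes 2 of 5 tested were lower and 3 did not pass. The lipid receptor genes Scarb1 and Cd36, both also expressed by endothelium, fell by 1.29 and 1.35 (adjusted p = 0.00125 and 0.000769, edgeR).

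Among genes of retinol and retinal oxidation or reduction 3 of 14 tested were higher and 0 lower by edgeR, with 11 not past the test. The alcohol dehydrogenase genes Adh1 and Adh7, whose products oxidise retinol among other alcohols, rose by 2.84 and 3.12 (SE 0.17 and 0.41, adjusted p = 5.11e-06 and 0.000393, edgeR). Adh1 stood at 829, 1243, 1222 and 1146 CPM in the CD249+ fraction of mice 2, 7, 8 and 10, against 129, 152, 149.9 and 188 CPM in the CD249- fraction, so its fractions were far apart in every mouse. Akr1b10, an aldo-keto reductase gene, rose by 0.61 (adjusted p = 0.013, edgeR), and was not called when mouse 7 was left out (0.55, adjusted p = 0.0789). With mouse as a block the alcohol dehydrogenase gene Adh5, which did not pass without it (-0.23, adjusted p = 0.0683), was called lower (-0.23, adjusted p = 0.0463). The dehydrogenase genes Rdh11 and Rdh14, at 0.12 and 0.29, did not pass.

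Enzymes of esters went both ways. Of 7 tested, 2 were higher, 2 lower and 3 not past the test. Ces1d, a carboxylesterase that also stands in the list of alveolar fibroblast markers, rose by 3.57 (SE 0.40, adjusted p = 0.000162, edgeR), and Dgat2, an acyltransferase of triglyceride synthesis, by 1.21 (adjusted p = 0.0414, edgeR), with overlapping fractions. Dgat2 was not called when CD249+ of mouse 2, 8 or 10, CD249- of mouse 7 or 10, or any whole mouse was left out, nor with library size only (0.93 to 1.50, adjusted p = 0.0564 to 0.186). The lipases that open stored esters, Lipe (hormone-sensitive lipase) and Pnpla2 (adipose triglyceride lipase), fell by 0.70 and 0.74 (SE 0.16 and 0.10, adjusted p = 0.00905 and 0.000471, edgeR), in 4 of 4 mice each.

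Among the nuclear receptors Rxrg, a retinoid X receptor gene of low level, rose by 2.54 (SE 0.63, adjusted p = 0.0123, edgeR), at 2.40 ± 0.448 CPM in CD249+ and 0.413 ± 0.281 CPM in the CD249- fraction (SD, n = 4 each), and it was not called when mouse 10 was left out (2.18, adjusted p = 0.075). Rara fell by 0.34 (adjusted p = 0.0338, edgeR), with overlapping fractions, at 76.1 ± 7.51 CPM in CD249+ and 96.1 ± 8.15 CPM in the CD249- fraction. Its call was lost in 9 of the 12 fits that left out a library or a mouse (-0.35 to -0.25, adjusted p = 0.0597 to 0.179). Rarg, Rxra and Rxrb gave 0.25, 0.12 and -0.15 and did not pass (adjusted p = 0.176, 0.574 and 0.306, edgeR). Of 10 known retinoic acid target genes tested, Rarres2, which encodes the secreted protein chemerin, rose by 1.77 (adjusted p = 0.000944) and the transglutaminase gene Tgm2 by 0.54 (adjusted p = 0.00621), while the homeobox gene Meis2 fell by 0.59 (adjusted p = 0.00289, edgeR for all 3), and 7 did not pass. Tgm2 was not called when mouse 7, 8 or 10 was left out (0.48 to 0.52, adjusted p = 0.0512 to 0.0557). With mouse as a block Rarres1, which did not pass without it (-1.06, adjusted p = 0.0524), was called lower (-1.16, adjusted p = 0.0367).

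**Figure D3:**
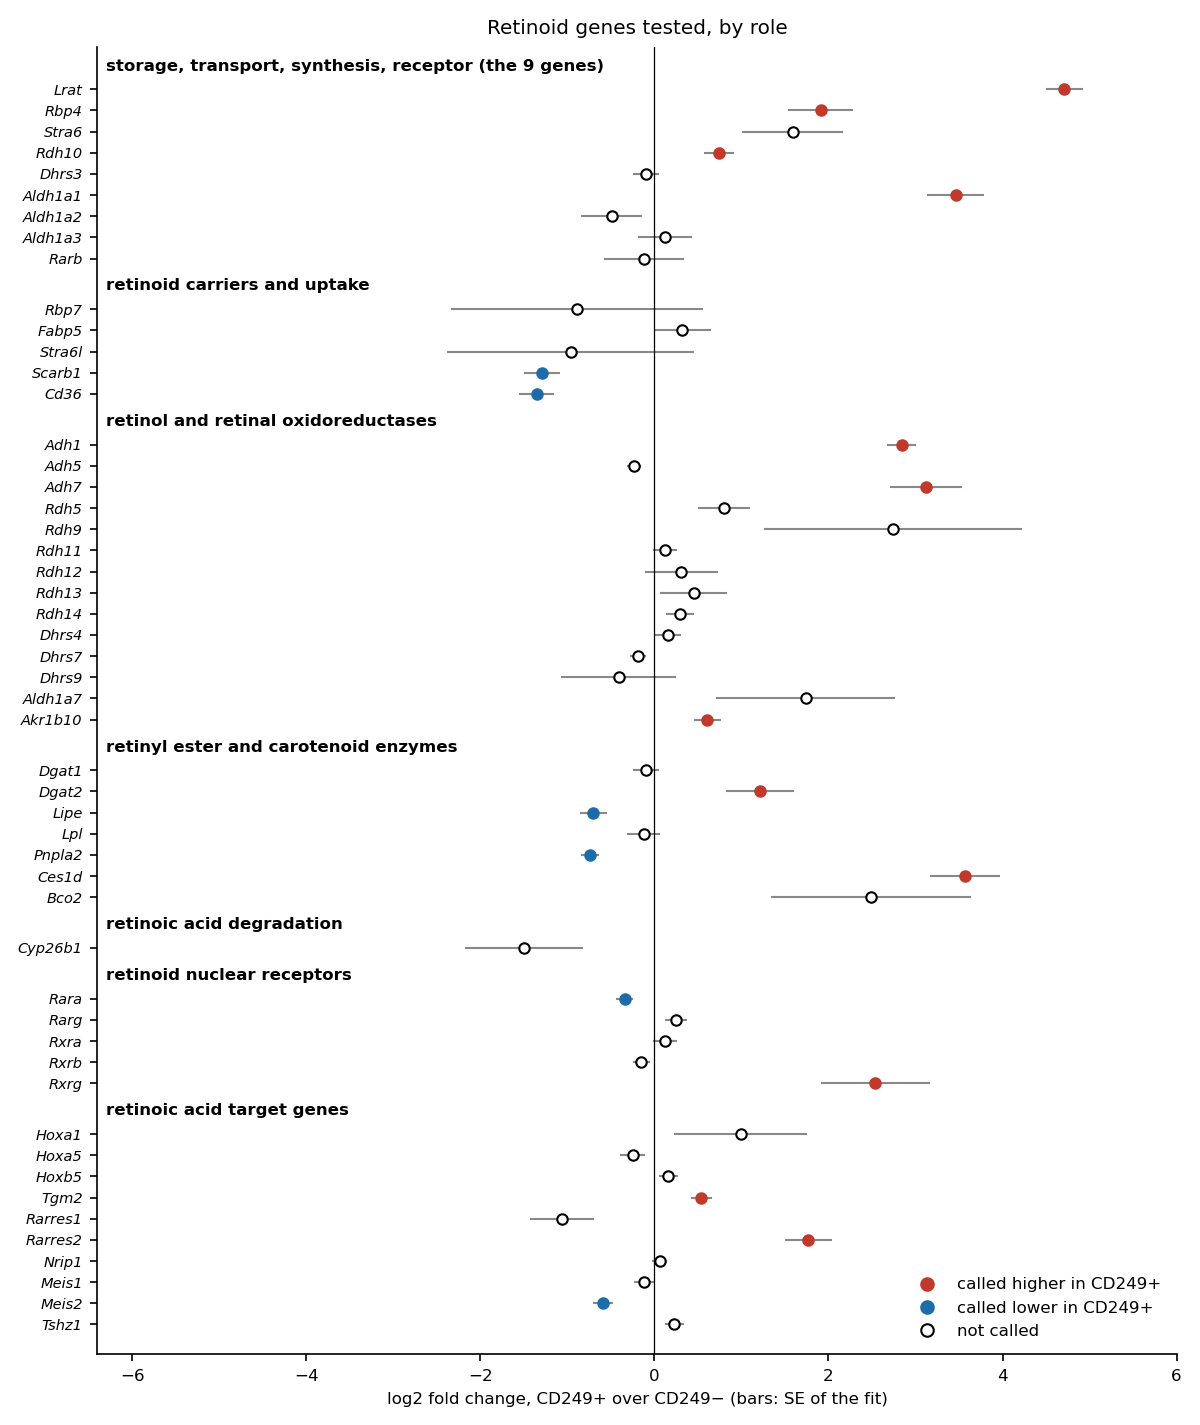
Log2 fold change of CD249+ over CD249- for the 9 genes (top) and for the 42 other retinoid genes tested, in 6 lists by role, with bars for the SE of the edgeR fit. Filled red points were called higher, filled blue points lower and open points not called; Lrat at 4.71 and Ces1d at 3.57 lie furthest to the right, and 6 of the 42 other genes are called lower.

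Collagen genes were also higher in CD249+ libraries, and the 9 genes were therefore set against 8 collagen genes (Col1a1, Col1a2, Col3a1, Col5a1, Col5a2, Col6a1, Col6a2 and Col6a3), whose mean log2 level was higher by 1.83 in CD249+ libraries. On this scale, a gene with equal TMM-scaled levels stands at about -1.83. The collagen mean was higher in CD249+ of every mouse, so such a gene is lower in 4 of 4 mice by construction. These differences are descriptions with no test, and the shares of all genes were not counted on this scale. Relative to the collagens Lrat was still higher by 2.80 in CD249+ libraries and Aldh1a1 by 1.65, in 4 of 4 mice each and with no overlap. Rbp4 differed by 0.11, with overlapping fractions, higher in 3 of 4 mice. The collagens themselves rose unequally (log2 fold changes, edgeR). Col1a1, Col1a2, Col3a1, Col5a1 and Col5a2 rose by at most 1.53, and Col6a1, Col6a2 and Col6a3 by 2.23 to 2.72. Rbp4, at 1.91, lay between these groups, so its difference depends on the collagens chosen. Other sets of collagens were not tested. Rdh10, although higher in CPM, was lower by 1.10 relative to the collagens in 4 of 4 mice. Dhrs3, Aldh1a2, Aldh1a3 and Rarb were lower by 1.92, 2.47, 1.77 and 1.81 in 4 of 4 mice, and Stra6 by 0.68 in 3 of 4.

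**Figure D4:**
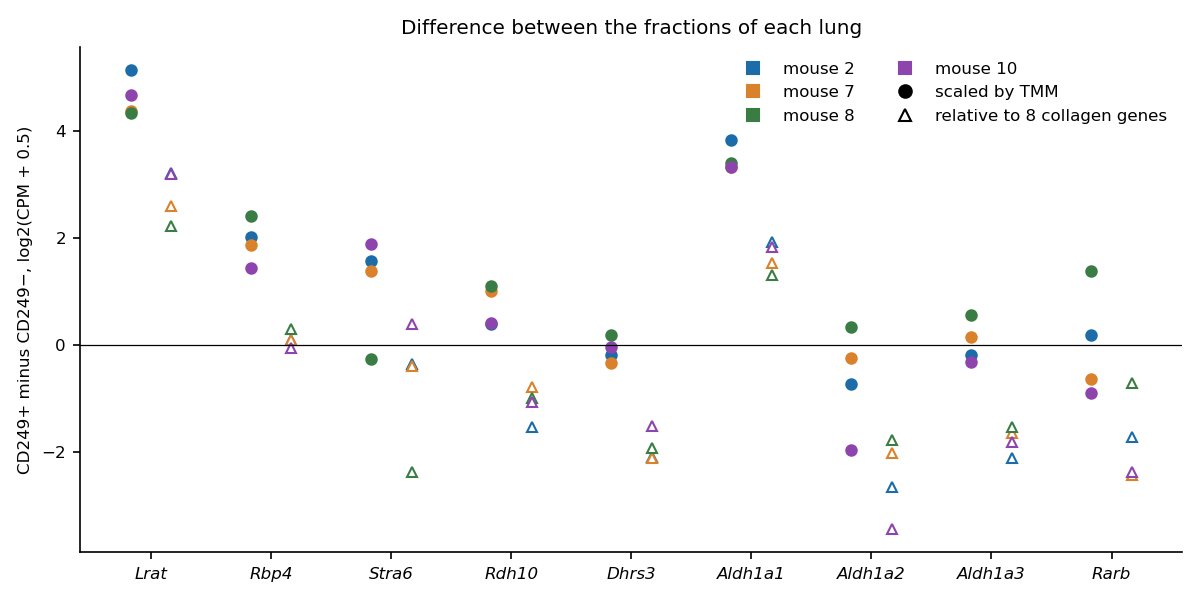
Difference of CD249+ minus CD249- in log2(CPM + 0.5) for each gene and mouse, with TMM scaling (filled circles) and relative to the mean of 8 collagen genes (open triangles). Lrat and Aldh1a1 lie above 0 on both scales in every mouse, Rbp4 moves to near 0, and Rdh10 lies above 0 with TMM and below 0 relative to the collagens.

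Ordered by level per kilobase of transcript, the 9 genes stood in different orders in the fractions. In CD249+ cells Aldh1a1 was first at 244 ± 73.3 CPM per kb, above Rbp4 at 89.1 ± 29.8, with no overlap between them. Rbp4 overlapped with Dhrs3 (41.7 ± 5.23), and Dhrs3 with Lrat (38.8 ± 8.07). After a gap, Aldh1a2 (10.9 ± 5.90) overlapped with Aldh1a3 (6.42 ± 2.71), and Aldh1a3 with Rdh10 (5.38 ± 0.599). After a further gap, Rarb (1.40 ± 0.449) and Stra6 (0.898 ± 0.419) overlapped and were last. In CD249- cells Dhrs3 was first at 44.8 ± 8.58 CPM per kb and overlapped with Rbp4 (23.7 ± 10.8), which overlapped with Aldh1a1 (22.3 ± 8.81), as that did with Aldh1a2 (15.2 ± 1.51). Aldh1a3 (5.89 ± 1.38) and Rdh10 (3.22 ± 0.566) followed without overlap, and Rarb (1.53 ± 0.884), Lrat (1.48 ± 0.318) and Stra6 (0.297 ± 0.140) were last (SD, n = 4 each). Lrat thus stood at place 4 of 9 in CD249+ and place 8 of 9 in CD249- cells. Measured by the length of all annotated exons, Aldh1a1 stood at 102 CPM per kb in CD249+ and 9.26 CPM per kb in CD249- cells, and neighbours changed places only between Dhrs3 and Lrat in CD249+ cells, and between Aldh1a1 and Aldh1a2 and between Rarb and Lrat in CD249- cells.

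The genes whose pattern over the 8 libraries was most like each gene that rose were sought among 10085 others of at least 10 CPM in the higher fraction, by Pearson's r of log2(CPM + 0.5). These values are descriptions, since the 8 points fall into 2 fractions and the libraries of a mouse share a lung. Lrat was most like Spon1, a matrix protein gene of the alveolar fibroblast list (r = 0.9988), and the receptor phosphatase gene Ptprd (r = 0.9986). Aldh1a1 was most like Gpx3, a secreted glutathione peroxidase gene (r = 0.9997), and Inmt, a methyltransferase gene of the same alveolar list (r = 0.9990). Rbp4 was most like the collagen gene Col3a1 (r = 0.9967) and Fstl1 (r = 0.9960), and Rdh10 like the lipid droplet gene Bscl2 (r = 0.9916) and the angiotensinogen gene Agt (r = 0.9910). The likest genes of Lrat and Aldh1a1 differed between the fractions by 2.77 to 3.68 on the log2 scale, those of Rbp4 by 1.53 and 1.06.

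Red cell RNA differed between the mice and, in each mouse, was lower in CD249+. Haemoglobin transcripts stood at 129 and 366 CPM in the CD249+ and 497 and 502 CPM in the CD249- libraries of mice 7 and 8, against 15.5 and 12.1 CPM in the CD249+ and 26.8 and 15.7 CPM in the CD249- libraries of mice 2 and 10. Transcripts of the mitochondrial genome took 0.599, 0.776, 0.862 and 0.615% of counts in CD249+ libraries of mice 2, 7, 8 and 10, against 0.654, 1.23, 1.44 and 0.881% in CD249- libraries, also lower in CD249+ of each mouse. The part of either in the results was not tested. Fits within these pairs of mice gave Lrat 4.46 in mice 7 and 8 and 4.95 in mice 2 and 10, and Aldh1a1 3.39 in mice 7 and 8 and 3.53 in mice 2 and 10, all called. Rbp4 gave 2.18 in mice 7 and 8 and 1.61 in mice 2 and 10, and Rdh10 1.12 in mice 7 and 8 and 0.42 in mice 2 and 10, with neither call kept in mice 2 and 10 (adjusted p = 0.226 and 0.311, edgeR). Over all genes 3028 were called in mice 7 and 8 alone and 668 in mice 2 and 10 alone.

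Libraries also differed in genes of other cells. The epithelial sum was 656 to 10331 CPM in CD249+ and 431 to 1082 CPM in CD249- libraries, its highest value being that of the CD249+ library of mouse 10, where Aldh1a1 was also highest and Aldh1a2 lowest. Of 11 epithelial markers tested 3 were called higher and 2 lower. Those higher, each in 4 of 4 mice, were Sftpb (log2 fold change 3.77, adjusted p = 0.0264), Sftpc (3.59, adjusted p = 0.0313) and Sftpa1 (3.56, adjusted p = 0.0297, edgeR for all 3), which encode surfactant proteins of alveolar epithelium, while Krt19 and Hopx fell by 0.70 and 1.31 (adjusted p = 0.0383 and 0.000827, edgeR). Sftpc alone stood at 319.9, 483, 781 and 7551 CPM in CD249+ libraries of mice 2, 7, 8 and 10, against 126, 58.6, 126 and 448 CPM in CD249- libraries. The epithelial sum differed by 1.44 on the log2 scale (exact permutation p = 0.143, adjusted p = 0.184 over 9 lists), and by 0.84 without mouse 10. Without the CD249+ library of mouse 10 Aldh1a1 gave 3.30 (adjusted p = 0.000204, edgeR) and Aldh1a2 -0.22. Leukocyte markers summed to 1351 to 3593 CPM in CD249+ and 1983 to 3216 CPM in CD249- libraries, with 1 of 12 called, H2-Ab1, which was lower. Lyz2 alone made up 3147 CPM of the highest CD249+ sum, that of mouse 10. With mouse as a block Ptprc, Cd3e, Cd68, Itgax, S100a8 and Nkg7 were also called lower (adjusted p = 0.0101 to 0.0459, edgeR, where 17.1% of all genes were lower). The other leukocyte markers did not pass with the block. Pericyte and smooth muscle markers summed to 1400.1 to 2218 CPM in CD249+ and 318 to 896 CPM in CD249- libraries, with 10 of 12 called higher. Alveolar fibroblast markers, at 6484 to 13028 CPM in CD249+ and 582 to 1084 CPM in CD249- libraries, were all 10 called higher, and adventitial fibroblast markers, at 3257 to 5087 CPM in CD249+ and 6200.1 to 6521 CPM in CD249- libraries, were called higher for 2 and lower for 4 of 10. Those lower were Dpp4, Ly6a, Ly6c1 and Sema3c (-1.52 to -1.10), beside a median of -1.47 over the endothelial markers. Those higher were Dpt (1.64) and Col14a1 (0.75), and 4 did not pass. With mouse as a block Clec3b of this list was also called higher (0.77, adjusted p = 0.000986, edgeR). So were the epithelial marker Cdh1 (1.29, adjusted p = 0.0369) and the smooth muscle marker Cnn1 (1.58, adjusted p = 0.00511, edgeR for both). The fibroblast marker Vim was called lower with the block (-0.23, adjusted p = 0.0273, edgeR). The block called 2809 of all 14524 genes higher. The adventitial sum thus does not stand for the whole list, and the part of endothelium in it was not tested. The part of any of these cells in the levels of the 9 genes was not tested.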

How the data were processed

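RNA of 8 libraries, a CD249+ and a CD249- fraction from each of 4 mice, was reverse transcribed from 10 ng with oligo(dT) and the SMART-Seq V4 kit, made into libraries with Nextera XT and read as single 75 bp reads, per the labels' protocols. The kit marks no strand, so genes that overlap or lie antisense share reads, and counting errors cover amplified reads, not molecules. The authors deposited estimated counts, expected counts per gene of which 12.0% are not whole. Without roles, the submitters' processing notes list RSEM 1.2.28, STAR 2.6.1, bcl2fastq 2.20, R 3.6.3 and DESeq2 1.26.0. Their only build is GRCh38, which is human, and which mouse build was used is not stated in the sources. The 92 ERCC spike-in entries were at 0 and left out. Coordinates and transcript lengths (the APPRIS principal transcript) are those of GENCODE M21 on GRCm38, where 99.0% of identifiers were found without their version.

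Counts were rounded, filtered with filterByExpr and scaled by TMM. The sorted fractions were tested in edgeR 4.0.16 (R 4.3.3) with its two-sided quasi-likelihood test on fraction alone, which leaves out the pairing by mouse. The p-values were adjusted by Benjamini-Hochberg over all 14524 genes kept. The script was checked on simulated data. Alternatives were mouse as a block, library size only, RLE scaling, other filters, DESeq2 1.42.0, limma-voom 3.58.1, and leaving out libraries or mice. Both fractions came from the same lungs, and deviations from the group means correlated at 0.216 to 0.383 within a mouse, so mouse numbers were taken to pair the libraries. The 9 genes, the gene lists and the tests were chosen with earlier results of these data known. Named were the 9 genes, Enpep, list members called at a mean of at least 1 CPM, the receptors and Cyp26 genes, Aldh1a7, the defining markers of other cells and the 2 genes most like each called member. Rdh11, Rdh14, Adh5, Rarres1, Vim, Cnn1 and the further epithelial, leukocyte, mesothelial and adventitial markers named were chosen after their values were seen. One gene of the lists is not reported here and is in no count of list members. The collagen comparison adds 0.5 to each CPM.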

Additional observations from a re-analysis of the deposited data

Results flagged for a closer look

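Values of a part of the genes named here were searched in each fraction for a library far from the other 3. Dixon's test at the 95% level was used. Of 72 groups 6 stood out, and chance alone marks about 1 group in 20. Rbp4 was low in the CD249+ library of mouse 2, at 42.2 CPM against 93.3 to 104 CPM in the others. Dhrs3 was low in the CD249- library of mouse 8, at 75 CPM against 112 to 119 CPM. Aldh1a2 was high in the CD249- library of mouse 10, at 39.5 CPM against 32.4 to 33.0 CPM. Scarb1 was high in the CD249+ library of mouse 2, at 258 CPM against 148 to 151 CPM, and Adh7 in the CD249- library of mouse 10, at 19.5 CPM against 8.76 to 9.97 CPM. Cyp26a1 was at 0.0354 CPM in the CD249+ library of mouse 8 and at 0 in the other CD249+ libraries. This is 1 count among zeros, for which the test always marks the library, so it carries no information.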

How the results depend on the processing

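Lrat and Aldh1a1 were called higher in all 21 alternative fits, with log2 fold changes of 4.46 to 4.95 and 3.28 to 3.68, Rbp4 in 20 of 21 (1.61 to 2.19) and Rdh10 in 18 of 21 (0.42 to 1.12). Of the 9 genes 3 to 5 were called when a library or a mouse was left out, 10 to 16 other retinoid genes (14 with all libraries), and 2978 to 4458 genes in all.

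The mice 2 and 10 alone gave 668 calls over all genes, 2 of the 9 genes and 3 other retinoid genes, against 3028, 4 and 9 in mice 7 and 8 alone. Leaving out both libraries of mouse 8 gave 2978 calls over all genes, against 4468 with all libraries. With mouse as a replicate block 5298 genes, the same number of 4 among the 9 genes and 17 other retinoid genes (8 higher, 9 lower) were called. Apart from Cyp26b1, Ptprc (-0.90, adjusted p = 0.0126, against 0.0635 without the block), Adh5 and Rarres1, the block changed no call of a retinoid gene named or a gene followed through the settings.

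Changes of sign were confined, among the genes followed, to differences that were not called. Aldh1a2 gave 0.11 in mice 7 and 8 alone. Aldh1a3 gave -0.27 in mice 2 and 10 alone and -0.11 to 0.35 with libraries left out. Rarb gave 0.00 with the block, 0.18 in mice 7 and 8 alone and -0.59 to 0.21 with libraries left out. Epcam (0.10) gave -0.11 with the block, 0.00 with library size only, -0.12 with limma-voom, -0.72 in mice 7 and 8 alone and -0.35 to 0.41 with libraries left out. Wt1 (0.37) gave -0.11 with the block, -0.24 with limma-voom and -0.49 to 0.82 with libraries left out. The leukocyte sum differed by -0.20, and by -0.55 to 0.01 with a mouse left out. The cause of these changes was not tested. With 3 mice a fraction the exact test cannot pass 0.05, so the calls of marker sums were lost by construction. Stra6, Rarb and Rxrg rest on low counts, which limits the precision of their fold changes.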
